A study of Mus musculus with 9 samples.

Results

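The nuclear exportins measured here are 7 genes, Xpo1, Xpo4, Xpo5, Xpo6, Xpo7, Xpot and Cse1l, each found by its exact symbol in the annotation of the array's probe sets (groups of probes that share 1 value). Each had 1 probe set of its own, 7 of 12898 genes kept for testing, and 0 probe sets listed an exportin beside another gene. Their mRNA was measured on expression arrays in red cell precursors of the mouse fetal liver at E14.5 (E, embryonic day). The sort took cells of high forward scatter, hence large, that carried both CD71, the transferrin receptor, and Ter119, an antigen of the erythroid surface. The groups were wild type, Th3/+ and Th3/Th3, with 3 arrays each and 9 in all, and the labels call the samples of a genotype biological replicates. Th3 is a germline deletion of the adult beta-globin genes, and Th3/+ embryos carry 1 and Th3/Th3 embryos 2 copies of it. All embryos came from matings between Th3/+ parents of 129SV origin, backcrossed for 9 generations to C57BL/6. The labels do not say whether a sample was 1 embryo or a pool, or which embryos were littermates.

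Exportins are relatives of importin beta that carry molecules out of the nucleus. They bind their cargo together with the small GTPase Ran in its GTP form, pass the nuclear pore, and release the cargo when Ran hydrolyses GTP in the cytoplasm. Each has its own range of cargo. Xpo7 is abundant in maturing erythroblasts, where it is known for a part in the condensation of the nucleus before the cell expels it.

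These genes were chosen by the measured Th3/Th3 against wild type difference of Xpo7, which was already known to be large, and the others as its relatives. The Th3/Th3 against wild type values of the exportins are therefore given as a description without a test. Th3/+ was tested against the midpoint of both homozygous genotypes. In this balanced design the error of that contrast is uncorrelated with the error of the difference between them. Its size for Xpo7 still depends on the fall by which Xpo7 was chosen, where Th3/+ is like wild type. Th3/+ was also tested against wild type, whose arrays the choice of Xpo7 shares. The other 6 exportins were tested as well in Th3/Th3 against Th3/+, which for Xpo7 is a description because it shares the Th3/Th3 arrays.

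The cells held the defining erythroblast markers in all groups. Alas2 (heme synthesis) lay between 11.79 and 12.77, Slc4a1 (the anion exchanger band 3) between 11.77 and 13.14, Tfrc (CD71) between 10.93 and 12.23, Rhag (an Rh-associated membrane protein) between 10.61 and 11.50, Gata1 between 9.26 and 10.05, Klf1 between 9.23 and 9.77 and Epor between 8.59 and 9.20 (log2 signal, lowest and highest of 9 arrays). Of these 7 markers 0 rose and 5 fell in Th3/Th3 against wild type (limma; 4 to 7 lower across 16 alternatives), beside 7.31% of all probe sets called higher and 4.98% called lower. The array medians were 4.97 to 5.05. Th3/+ replicate 1 and Th3/Th3 replicate 1 stood apart from the other 7 arrays on the component that held 16.7% of the variance, with scores of 20.5 and 25.5 against -14.9 to 7.71. The exportin differences that these arrays move most are given with and without them.

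Xpo7 was high in wild type and Th3/+ cells, with means closer to each other than the arrays of wild type were, and far lower in Th3/Th3 cells. Its log2 signal was 12.59, 12.68 and 12.84 in the wild type arrays and 12.70, 12.68 and 12.65 in the Th3/+ arrays. The Th3/Th3 arrays held 9.04, 8.77 and 8.95. All 3 Th3/Th3 arrays thus lay far below all 6 others, while the wild type and Th3/+ arrays overlapped. The genotype means were 12.70 ± 0.13 for wild type, 12.68 ± 0.03 for Th3/+ and 8.92 ± 0.14 for Th3/Th3 (SD, n = 3). As a description, the difference between Th3/Th3 and wild type was -3.78 (SE 0.09), which is 13.8-fold, and that between Th3/Th3 and Th3/+ was -3.76, which is 13.5-fold. The Th3/Th3 values remained well above the array medians, so background did not bound these differences. The highest value on any array was 14.03 to 14.20, above those of Xpo7. That does not show that the probes of Xpo7 were free of saturation in wild type and Th3/+, which was not tested.

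**Figure D1:**
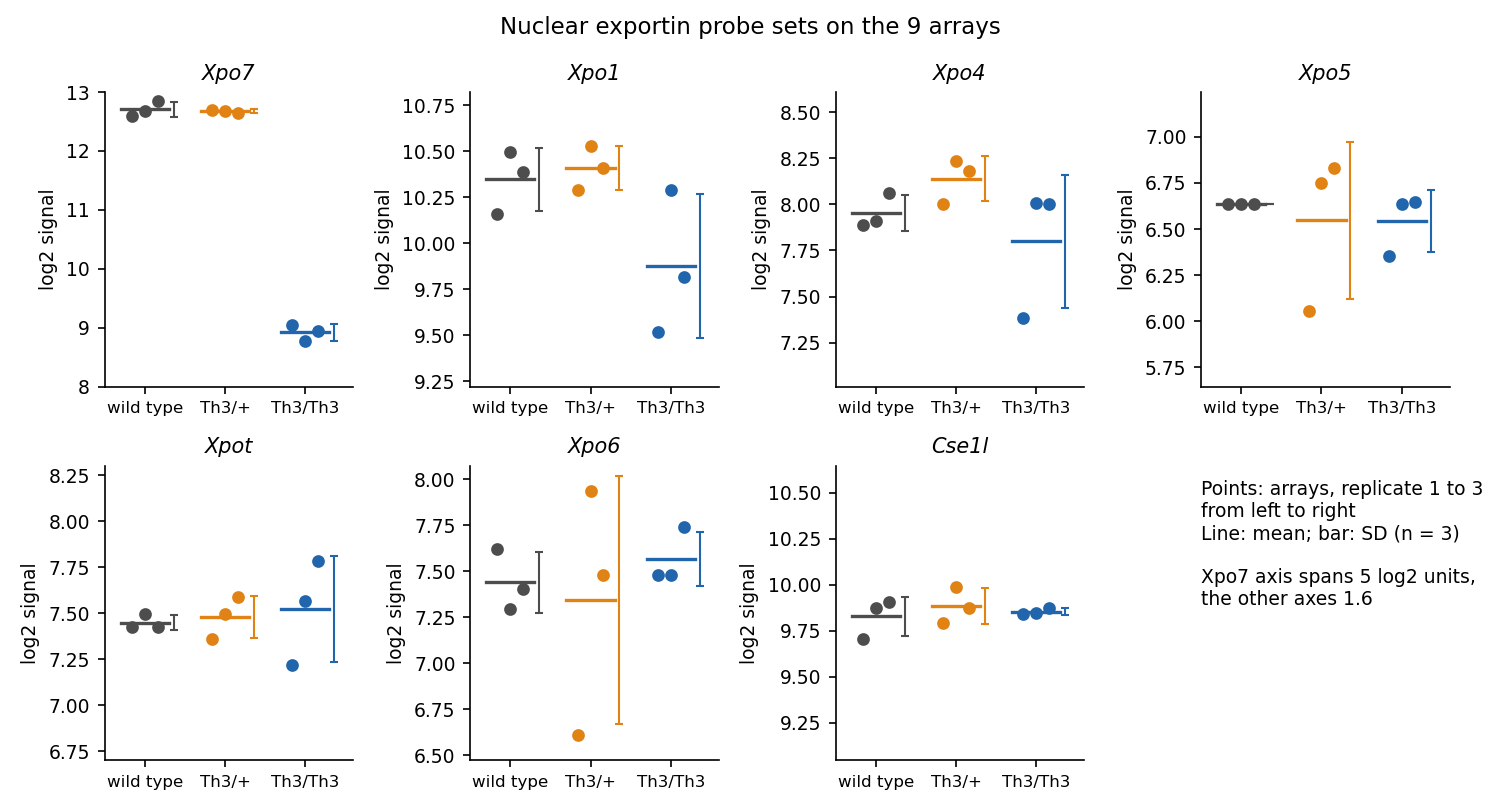
Log2 signal of the 7 exportin probe sets on each array (points, replicates 1 to 3 from left to right) by genotype, with the mean (line) and SD (bar, n = 3). The Xpo7 axis spans 5 log2 units and the others 1.6. The Th3/Th3 values of Xpo7 sit between 8.77 and 9.04, below every wild type and Th3/+ array, and the groups of the other exportins overlap.

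In Th3/+ cells Xpo7 differed from wild type by -0.03 (SE 0.09, limma adjusted p = 1.00), with a 95% interval from -0.23 to 0.18. A fall of more than 1.17-fold or a rise of more than 1.13-fold in Th3/+ lies outside that interval. With 1 array left out this difference ranged from -0.08 to 0.04, above 0 without wild type replicate 3. Against the midpoint of wild type and Th3/Th3, Th3/+ lay 1.87 higher (SE 0.08, interval 1.69 to 2.05, limma adjusted p = 2.28e-05), and all 3 Th3/+ arrays lay on that side. This contrast called 14 of all 17742 probe sets tested (0.0789%, with 0.0620% called higher), and the adjusted p of Xpo7 was the smallest of them. For a gene alike in Th3/+ and wild type this value grows with its Th3/Th3 fall, by which Xpo7 was chosen. Its size and rank are therefore not read as separate support. Without Th3/+ replicate 1 and Th3/Th3 replicate 1 the value was 1.89 (adjusted p = 0.00228), and over 15 alternatives the adjusted p lay between 9.60e-06 and 0.00228. In bulk samples such as these, fewer cells that express a gene and less RNA per cell cannot be told apart.

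The other 6 exportins showed no change that passed the test in Th3/+. There 0 of the 7 exportins were called against wild type (limma, with 0 also at an unadjusted p under 0.05), beside 0.0282% of all probe sets, and the differences of the 6 others ran from -0.10 to 0.19. In Th3/Th3 against wild type the fit called 1 of the 7, Xpo7, beside 12.3% of all probe sets, and nothing is read from this count, since Xpo7 was chosen by that difference. In Th3/Th3 against Th3/+, 0 of the other 6 were called (limma, with 1, Xpo1, at an unadjusted p under 0.05), beside 7.27% of all probe sets. Of those 6, 0 had Th3/Th3 arrays that did not overlap the wild type arrays, beside 27.5% of all probe sets, and 0 had Th3/Th3 arrays apart from those of Th3/+, beside 22.8%.

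**Figure D2:**
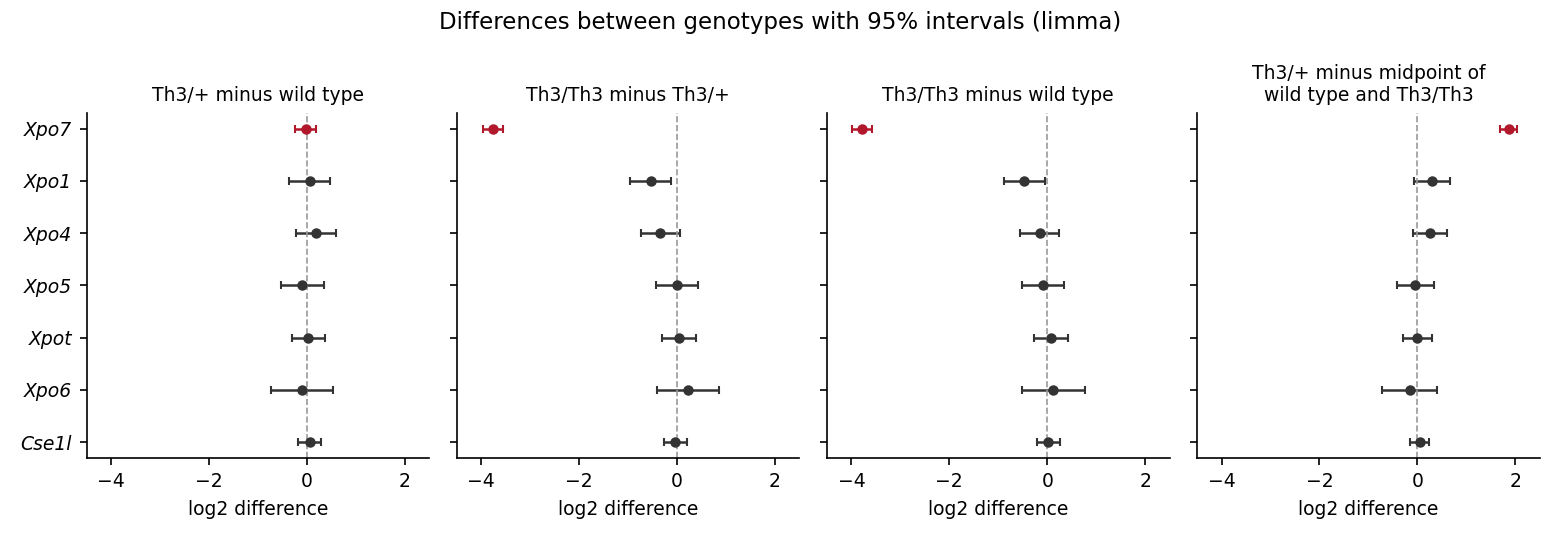
Differences of mean log2 signal between genotypes for each exportin (points) with 95% intervals from the limma fit (bars), in 4 contrasts on 1 common axis. Xpo7 (red) lies near -3.8 in both Th3/Th3 contrasts, near 0 in Th3/+ against wild type and at 1.87 against the midpoint. Of the other exportins, only Xpo1 has intervals that leave out 0, in the Th3/Th3 contrasts, and against Th3/+ it did not pass the test after adjustment.

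Xpo1 (CRM1) is the general exporter of proteins that carry a leucine-rich export signal, and it also carries ribosomal subunits. Its wild type arrays held 10.16, 10.50 and 10.39 and its Th3/+ arrays 10.29, 10.53 and 10.41. In Th3/Th3 it held 9.52, 10.29 and 9.81. Replicates 1 and 3 of Th3/Th3 lay below all other arrays and replicate 2 among them, so the groups overlapped. Th3/Th3 differed from Th3/+ by -0.53 (SE 0.19, limma adjusted p = 0.131), with an interval from -0.95 to -0.12, and from wild type by -0.47, with an interval from -0.89 to -0.05. These differences moved with single arrays in both directions, and their calls also changed with the model. Without Th3/Th3 replicate 2 the difference from Th3/+ was -0.74 and passed the test (adjusted p = 0.0299). On all arrays, at -0.53, it also passed with the replicate number fitted as a block (adjusted p = 0.0394). Without Th3/+ replicate 1 and Th3/Th3 replicate 1 it was -0.41 (adjusted p = 0.263), and over 16 alternatives the adjusted p lay between 0.0299 and 0.322.

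Xpo4 exports the translation factor eIF5A and also works as an importer. It held 7.89, 7.91 and 8.06 in the wild type arrays, 8.003, 8.24 and 8.18 in the Th3/+ arrays, and 7.38, 8.01 and 8.003 in the Th3/Th3 arrays. Th3/Th3 replicate 1 was low and the other Th3/Th3 arrays lay within the range of the rest. The difference between Th3/Th3 and Th3/+ was -0.34 (SE 0.18, limma adjusted p = 0.323, interval -0.74 to 0.06). Against wild type it was -0.15, with an interval from -0.56 to 0.25. Without Th3/Th3 replicate 1 these differences were -0.13 and 0.05, and without Th3/+ replicate 1 as well they were -0.20 and 0.05.

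The exportins of RNA were Xpo5, which carries microRNA precursors, and Xpot, which carries transfer RNA. Xpo5 held the same deposited value, 6.64, on all 3 wild type arrays and on Th3/Th3 replicate 2, so its wild type spread of 0 is a feature of the deposited values and not a measure of error. Th3/+ held 6.06, 6.75 and 6.83 and Th3/Th3 6.35, 6.64 and 6.65, with replicate 1 the lowest in both. Th3/Th3 differed from Th3/+ by -0.003 (SE 0.19, limma adjusted p = 0.997) and from wild type by -0.09, with an interval from -0.52 to 0.34. Without both arrays that stood apart the differences were -0.15 and 0.005. Xpot held 7.43, 7.50 and 7.42 in the wild type arrays, then 7.36, 7.50 and 7.59 in those of Th3/+ and 7.22, 7.56 and 7.79 in those of Th3/Th3. Its Th3/Th3 arrays held both its lowest and its highest value. Th3/Th3 differed from Th3/+ by 0.04 (SE 0.15, limma adjusted p = 0.920) and from wild type by 0.07, with an interval from -0.27 to 0.42. Without both arrays that stood apart they were 0.13 and 0.23.

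Xpo6 carries actin, bound to profilin, out of the nucleus, and Cse1l (CAS) returns importin alpha to the cytoplasm after import. Xpo6 varied most between arrays of 1 genotype among the exportins (SD pooled over genotypes 0.41). It held 7.62, 7.29 and 7.40 in wild type, 6.61, 7.94 and 7.48 in the Th3/+ arrays, and 7.48, 7.48 and 7.74 in Th3/Th3. The Th3/+ arrays held both its lowest and its highest value. Th3/Th3 differed from Th3/+ by 0.22 (SE 0.28, limma adjusted p = 0.731), and the interval against wild type, -0.51 to 0.77, leaves room for a 1.70-fold rise. Without both arrays that stood apart the difference from Th3/+ was -0.10 and that from wild type 0.17. Cse1l varied least (pooled SD 0.08). It held 9.71, 9.87 and 9.90 in wild type, 9.79, 9.99 and 9.87 for Th3/+, and 9.84, 9.84 and 9.87 in Th3/Th3. Th3/Th3 differed from wild type by 0.03 with an interval from -0.21 to 0.26, so that a change beyond 1.19-fold in either direction lies outside it, and from Th3/+ by -0.03 (SE 0.10, limma adjusted p = 0.908).

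Most of the 6 exportins other than Xpo7 were low on the arrays that stood apart. The share of all probe sets that were low there is not given here, so this is not read as particular to exportins. In Th3/+ replicate 1 all 6 were the lowest of their genotype. In Th3/Th3 replicate 1 the count was 5 of 6, with Xpo6 sharing its lowest value with replicate 2. Cse1l was barely the lowest there, at 9.840 beside 9.845 on replicate 2. Of the 6, 3 had their lowest value of all 9 arrays on Th3/Th3 replicate 1 and 2 on Th3/+ replicate 1. Xpo7 did not follow this: on those arrays it was the highest of its genotype, at 12.70 and 9.04. The part of these arrays in the Xpo1 and Xpo4 differences was not tested beyond leaving them out.

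The rest of the nuclear transport machinery was set beside the exportins through lists of genes, given as counts of members that passed the test in Th3/Th3 against wild type, where 7.31% of all probe sets were called higher and 4.98% lower. Importins, which carry cargo inwards, had 1 of 19 members higher and 1 lower, with a median difference of -0.12, where the median of all probe sets was 0. Kpna6, an importin alpha, rose from 8.10 ± 0.11 to 8.63 ± 0.17 (SD, n = 3; limma adjusted p = 0.0350), and Kpna1, another, fell from 8.76 ± 0.16 to 8.28 ± 0.13 (adjusted p = 0.0465). The Ran cycle, which gives transport its direction, had 0 of 7 called (limma, 2 at an unadjusted p under 0.05; median -0.12). In Rcc1, the exchange factor that loads Ran with GTP, the means were 6.87 ± 0.08 and 6.44 ± 0.30 (adjusted p = 0.116), and in Ranbp2, a pore protein that binds Ran, 9.84 ± 0.27 and 9.40 ± 0.34 (adjusted p = 0.181). Against Th3/+, with a mean of 10.17 ± 0.08, Ranbp2 fell by 0.76 in Th3/Th3 (limma adjusted p = 0.0409). It was the 1 Ran cycle gene called in that contrast, beside 7.27% of all probe sets. This count was 0 to 2 across 16 alternatives, and 0 when Th3/+ replicate 1, 2 or 3, Th3/Th3 replicate 1 or 3 or wild type replicate 2 was left out. The same contrast called 2 of the 28 pore proteins below lower, and 0 importins, mRNA export genes or exportin cargoes and cofactors. The importin calls in Th3/Th3 against wild type were not stable across the alternatives, at 0 to 1 higher and 0 to 2 lower. The main count of 1 held in 8 of 16 for higher and in 3 of 16 for lower. Those of the Ran cycle ranged from 0 to 1 lower.

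Of 28 nucleoporins, the proteins of the pore, 0 rose and 2 fell in Th3/Th3 against wild type, with a median of -0.04. Of all probe sets 7.31% were called higher and 4.98% lower there. The small counts of this list and of those that follow here are not read as a difference from these shares. Nup210, a membrane nucleoporin, fell by 1.33 (SE 0.17, limma adjusted p = 0.00150). Its means were 9.45 ± 0.25 in wild type, 9.24 ± 0.25 for Th3/+ and 8.12 ± 0.12 for Th3/Th3. Ahctf1, which seeds pore assembly on chromatin, fell by 0.80 (SE 0.16, limma adjusted p = 0.0121). Of 18 genes of bulk mRNA export, a route that does not use exportins, 1 rose and 0 fell (median 0.15). That was Thoc5, of the THO complex, which rose by 0.71 (adjusted p = 0.0288). Of 13 cargoes and cofactors of exportins, 1 rose and 0 fell (median -0.08). This was Snupn, an importer of small nuclear RNPs that Xpo1 returns, which rose by 0.82 (adjusted p = 0.0177). Arhgap1, a cargo of Xpo7 singled out after its value was seen, held 8.24 ± 0.19 in wild type, 8.22 ± 0.09 for Th3/+ and 8.01 ± 0.15 for Th3/Th3 (adjusted p = 0.349). The Thoc5 and Snupn calls were not stable: across 16 alternatives the number called higher ranged from 0 to 1 in the first list and from 0 to 2 in the second.

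Genes of late maturation were lower in Th3/Th3 cells alongside Xpo7. Of 21 late erythroid markers 0 rose and 20 fell in Th3/Th3 against wild type, beside 4.98% of all probe sets called lower, with a median of -0.84, and the count was 20 under each of 16 alternatives. In Th3/+ against wild type 0 of the 21 were called (limma, 1 at an unadjusted p under 0.05, median -0.04), beside 0.0282% of all probe sets. All 21 had a Th3/+ mean above the midpoint of wild type and Th3/Th3, by a median of 0.41. Of them 2 passed that test (0 to 4 across 15 alternatives), beside 0.0620% of all probe sets called higher. Slc25a37, the mitochondrial iron importer, lay 0.73 above the midpoint (adjusted p = 0.0479), and Ube2o, a ubiquitin-conjugating enzyme of reticulocyte remodelling, 0.76 (adjusted p = 0.0479). Bpgm and Tspo2, which the naming rule adds, lay 0.50 and 0.56 above it without passing (adjusted p = 0.0908 and 0.108). For genes alike in Th3/+ and wild type these values grow with the Th3/Th3 fall. The midpoint values and calls of this list are therefore not read as separate support. The largest fall of the list, that of Slc25a37, was 1.69.

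Of 21 genes of nuclear condensation and enucleation, processes in which Xpo7 takes part, 1 rose and 7 fell in Th3/Th3 against wild type. Their median was -0.36, and of all probe sets 7.31% were called higher and 4.98% lower. Cit, citron kinase of cytokinesis, fell by 1.49 (SE 0.24, limma adjusted p = 0.00414), Foxm1, a mitotic transcription factor, by 0.85 (adjusted p = 0.00810), Lbr, the lamin B receptor of the inner nuclear membrane, by 0.68 (adjusted p = 0.0107), and Rock1, a kinase that acts on the actomyosin skeleton, by 0.76 (adjusted p = 0.0130). The number lower ranged from 4 to 9 across the alternatives, and the number higher from 0 to 1, with the main count of 1 in only 4 of 16. It was 4 without filter, and also without Th3/Th3 replicate 2 or without wild type replicate 1, 2 or 3. In Th3/+ 0 of the 21 were called against wild type (limma, 0 at an unadjusted p under 0.05), beside 0.0282% of all probe sets.

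**Figure D3:**
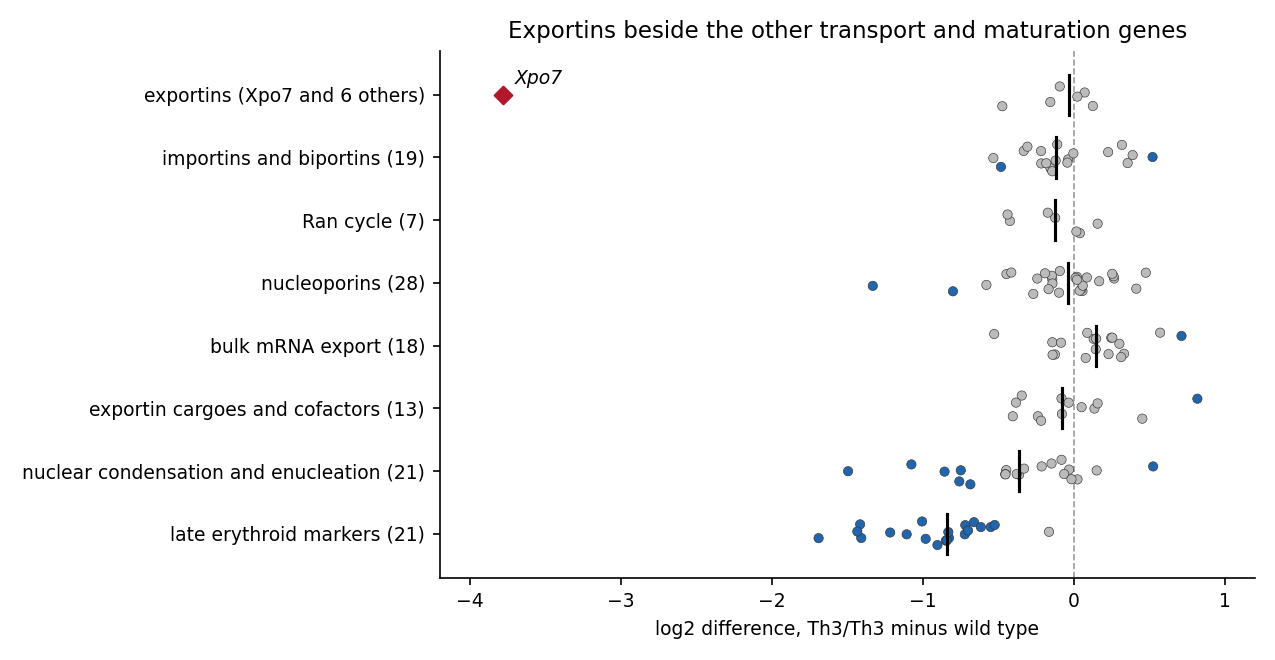
Log2 difference between Th3/Th3 and wild type for each measured gene of the transport and maturation lists (points, number of genes in brackets), with the median of each list (line, for exportins over the 6 other than Xpo7). Blue points passed the test at an adjusted p under 0.05, and the exportins carry no test. Xpo7 (diamond) lies beyond the lowest late erythroid marker, at -1.69, and the nuclear transport lists centre between -0.12 and 0.15.

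Some markers of other cells and of early progenitors also differed between the groups. Of 11 macrophage markers 0 rose and 3 fell in Th3/Th3 against wild type (median -0.49; 2 to 5 lower across 16 alternatives), beside 4.98% of all probe sets called lower, and the log2 of their summed signal was 9.21 to 9.61 for wild type, 9.22 to 10.04 for Th3/+ and 8.77 to 8.92 for Th3/Th3. Csf1r, Mrc1 and Cd163 were too low to be kept, and Adgre1 (F4/80) lay between 4.05 and 5.34, around the array medians. Hepatoblast markers had 0 of 8 called (limma, 0 at an unadjusted p under 0.05), with overlapping sums of 10.37 to 10.94, 10.37 to 11.33 and 10.25 to 10.996 for the genotypes in that order. Megakaryocyte markers had 0 of 6 called (2 at an unadjusted p under 0.05), with sums of 9.64 to 10.13, 9.77 to 10.05 and 9.28 to 9.51. Of 9 early progenitor markers 0 rose and 3 fell (3 to 4 across 16 alternatives), beside the same 4.98%: Itga4 by 1.24, Ikzf1 by 0.95 and Lmo2 by 0.62. Only these 3 lay well above the array medians. Kit, which marks earlier cells, held 4.58 to 4.84, and Gata2, Myb, Cd44, Spi1 and Fli1 lay between 4.52 and 5.52. A fall could hardly show at such levels, so no change in progenitor content is read from this list. The part of these markers in the Xpo7 difference was not tested.

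Among 12891 genes, the 6 whose pattern over the 9 arrays was most like that of Xpo7 were Cd36, Runx1t1, Pepd, Hbq1a, Slc2a1 and Cd82. Likeness was the root mean square difference between values centred on each gene's mean, from 0.46 in Cd36 to 0.80 in Cd82. Cd36 is a fatty acid receptor, Runx1t1 a corepressor, Pepd a dipeptidase, Hbq1a a theta globin, Slc2a1 the glucose transporter GLUT1 and Cd82 a tetraspanin. In Runx1t1 the arrays held 8.90, 8.89 and 9.14 in wild type, 8.95, 8.98 and 8.91 for Th3/+, and 6.27, 6.49 and 6.19 in Th3/Th3. Its Th3/+ arrays lay within the wild type range, and no test is given, since these 6 genes were chosen for this pattern. Slc2a1 likewise had a Th3/+ mean of 12.68 ± 0.04 beside 12.64 ± 0.27 in wild type and 10.51 ± 0.45 in Th3/Th3.

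In the other 4 like genes the Th3/+ mean lay between those of the other genotypes, closer to wild type. The difference between Th3/+ and wild type was -0.54 in Cd36, -0.63 in Pepd, -0.82 in Hbq1a and -0.41 in Cd82. In Hbq1a the Th3/+ arrays were far apart, at 9.08, 7.87 and 8.01, and its near-identical copy Hbq1b may share its signal. Cd36 lay near background in Th3/Th3, at 4.17, 4.87 and 4.73 beside 40th percentiles of 4.52 to 4.62 over the arrays, so no fold is given for it. Ranked instead by correlation with Xpo7 over the 9 arrays, the 6 closest genes were Runx1t1, Slc25a37, Nxpe2, Ackr1, Dhrs11 and Dennd4a (r from 0.990 to 0.995), of which 1, Runx1t1, was also among the 6 above. These correlations mostly restate the gap between Th3/Th3 and the other arrays, which Xpo7 was chosen for.

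**Figure D4:**
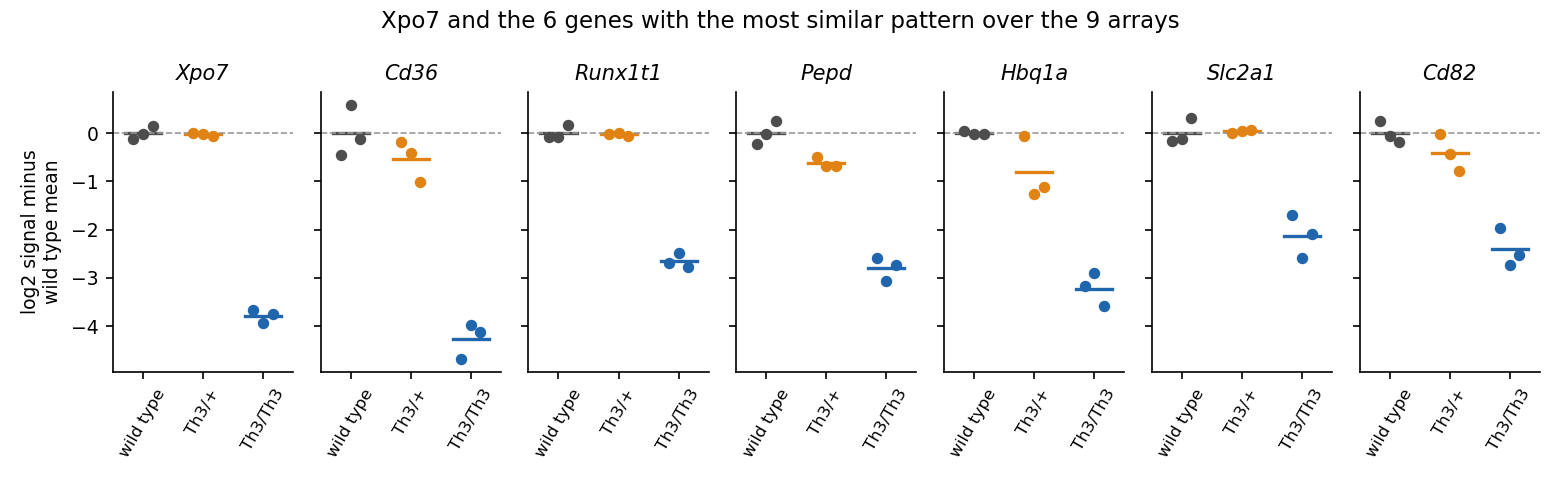
Log2 signal minus the wild type mean on each array (points, replicates 1 to 3 from left to right) and the genotype mean (line) for Xpo7 and the 6 genes with the smallest root mean square difference from it. Runx1t1 and Slc2a1 show Th3/+ arrays around 0 as Xpo7 does, and Cd36, Pepd, Hbq1a and Cd82 have Th3/+ means of -0.41 to -0.82.

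Xpo7 lies on chromosome 14, as does Xpo4. Neighbours were taken only among genes kept for testing, and genes between them without a kept probe set were passed over. Of the 5 nearest such genes on each side of Xpo7 in GRCm38.p6 (a comparison added after the data were seen), 0 rose and 2 fell in Th3/Th3 against wild type, beside 12.3% of all probe sets called. The nearest kept genes on either side, Fgf17 and Dok2, held differences of -0.21 and -0.18 (limma adjusted p = 0.142 and 0.390). The 2 that fell were Dmtn, a protein of the red cell membrane skeleton that is also a late erythroid marker here, by 0.98 (adjusted p = 0.00365), and Rb1, the retinoblastoma gene, by 1.03 (adjusted p = 0.0206). Rb1 starts 2531 kb from Xpo7.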

How the data were processed

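The deposited table holds 1 log2 value per probe set and array. MAS5 is named in the submitters' processing notes, without version or settings, and that the values are log2 was taken from their range. How background was corrected and probes were summarised and scaled is not given in the sources used here. On 50.3% of the probe sets kept, at least 2 of 9 arrays held exactly equal values, so the spread of some probe sets is understated. Of 35556 probe sets, 6617 with identifiers below the lowest annotated one were taken for controls and left out. The filter kept a probe set where 3 or more arrays placed it over their 40th percentile, which left 17742, all 7 exportins among them. One mean per genotype was fitted to 9 arrays with limma 3.58.1 in R 4.3.3 (trended eBayes, two-sided), with Benjamini-Hochberg adjustment over all probe sets kept and a threshold of 0.05. With 3 against 3 arrays calls rest on the moderated variance. A listed gene was read from its brightest kept probe set with 1 symbol. Gene identifiers of all 7 exportins matched the mouse RefSeq table (GRCm38.p6). No promoter or protein sequence of Xpo7 was used here.

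The exportins and all lists were chosen with earlier results of these data known. Named were all exportins, per list up to 4 members (3 for markers) called in Th3/Th3 against wild type in order of adjusted p, or 2 by p where none was called, all erythroblast markers, and the 6 genes most like Xpo7. The fit was tested on simulated data with independent noise for each probe set and array. These held no arrays that stand apart and no exactly equal values, so that test does not cover such features. Alternatives changed the filter, normalization, variance model, samples and replicate block.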

Additional observations from a re-analysis of the deposited data

How the results depend on the processing

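Under each of 16 alternatives Xpo7 stayed uncalled in Th3/+ against wild type (-0.08 to 0.04, higher than 0 without wild type replicate 3). It stayed called against the midpoint under each of 15, since that contrast could not be fitted to only the groups compared. The alternatives changed the filter, the normalization, the variance model, the groups fitted, the replicate block and the arrays left out. In both Th3/Th3 contrasts, which are descriptions for Xpo7, it was lower throughout. Its value against the midpoint lay between 1.83 and 1.90. The number of exportins called stayed at 0 in Th3/+ against wild type and at 1 against the midpoint. In Th3/Th3 against Th3/+ and against wild type it lay between 1 and 2 when 1 array was left out. It was 2, with Xpo1 added, without Th3/Th3 replicate 2, and it was 2 with the replicate number as a block (replicate block; Xpo1 at -0.53 against Th3/+ with adjusted p = 0.0394). The main fit did not take the numbers as a pairing. Of 9 same-numbered pairs of arrays 6 had deviations correlated above 0.1 (range -0.13 to 0.36). Among 18 pairs with different numbers 4 did (range -0.35 to 0.25), and 6 of 9 arrays correlated best with their own number. Whether arrays of the same number share a batch was not tested. The number of all probe sets called moved more. Against the midpoint, where 14 were called, it was 38 with the stricter filter, 2 with no filter, 2 without the variance trend, 3 with the block, 1 without Th3/+ replicate 1 and Th3/Th3 replicate 1, and 1 to 33 without a single array. In Th3/+ against wild type, with 5, it was 10 with the stricter filter, 0 with only the groups compared, 3 without both arrays that stood apart, and 1 to 12 without a single array. In Th3/Th3 against Th3/+, with 1290, it was 798 with only the groups compared and 585 to 1412 without a single array, and in Th3/Th3 against wild type, with 2181, 1444 to 2310. The cause of these moves was not tested. The number of arrays and signal near background limit the precision.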
